A study of Homo sapiens with 12 samples.

Results

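The genes described are 10 genes of cellular iron handling, FTH1, FTL, TFRC, STEAP3, SLC11A2, SLC39A14, SLC40A1, ACO1, IREB2 and NCOA4, taken by symbol from a count table of 57500 rows. All 10 symbols had 1 row each, and all 10 passed the filter on low counts that left 16251 genes for testing. The RNA came from MRC5 cells, which are human embryonic lung fibroblasts. There were 4 groups of 3 libraries: proliferating cells (Prol), senescent cells after an X-ray dose of 20 Gy (Sen(IR)), and cells irradiated likewise and given UK5099 (Sen(IR)+UK5099) or CTPI2 (Sen(IR)+CTPI2). UK5099 inhibits the mitochondrial pyruvate carrier and CTPI2 inhibits SLC25A1, the mitochondrial citrate carrier. The study asked what these carriers contribute to the expression programme of senescent cells. The methods place the collection of irradiated cells at 10 to 12 days and the addition of either inhibitor at 1 day after irradiation. UK5099 was used at 100 µM, and the methods list 15 or 30 µM for CTPI2 without saying which was sequenced, so the inhibitors cannot be compared at matched doses. All samples are of 1 cell line, and no group of proliferating cells given an inhibitor is in the design. The labels do not say whether the libraries of a group are separate cultures, and the study describes its replicates as independent experiments or conditions. The p-values measure the spread between these libraries.

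Cells store iron in ferritin, a hollow shell built of heavy chains (FTH1), which oxidise iron, and light chains (FTL), which help to form the mineral core. Iron enters on transferrin through its receptor (TFRC), is reduced in endosomes by STEAP3 and leaves them through SLC11A2, whereas SLC39A14 carries iron that is not bound to transferrin, and SLC40A1 (ferroportin) is the iron exporter. The iron regulatory proteins ACO1 (IRP1) and IREB2 (IRP2) bind stem-loops called iron-responsive elements when iron is low, which blocks translation when the element lies in the 5′ UTR and stabilises the mRNA when it lies in the 3′ UTR. NCOA4 delivers ferritin to lysosomes for breakdown. Iron accumulation and high ferritin are known features of senescent fibroblasts.

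The elements are shown because ACO1 and IREB2 bind such sequences, and the search below matched them in 4 of the other genes. Annotated UTRs (GENCODE release 44, GRCh38) were searched on the transcript strand for a C, 5 further bases, the loop CAGTGN and 5 bases that pair with those before the loop, G-T pairs allowed. Of 18994 genes with a 5′ UTR, 39 (0.205%) held a match, among them FTH1, FTL and SLC40A1. Of 19213 genes with a 3′ UTR, 142 (0.739%) held one, among them TFRC with 4 matches. A match describes letters and is not proof of a working site, and the lack of one in the other 6 genes says only that these letters are not in their annotated UTRs. In each 29-base stretch the capitals mark the loop. They are chr11:61967574-61967602 on the minus strand (FTH1, 5′ UTR), chr19:48965335-48965363 on the plus strand (FTL, 5′ UTR), chr2:189580661-189580689 on the minus strand (SLC40A1, 5′ UTR) and, in the 3′ UTR of TFRC on the minus strand, chr3:196050979-196051007, chr3:196050575-196050603, chr3:196050510-196050538 and chr3:196050463-196050491.
FTH1: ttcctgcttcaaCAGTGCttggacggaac
FTL: ctcttgcttcaaCAGTGTttggacggaac
SLC40A1: caacttcagctaCAGTGTtagctaagttt
TFRC site 1: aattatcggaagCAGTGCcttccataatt
TFRC site 2: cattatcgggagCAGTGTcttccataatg
TFRC site 3: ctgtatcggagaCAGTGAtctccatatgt
TFRC site 4: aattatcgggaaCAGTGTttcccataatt

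Library totals ran from 20597736 to 28245693 counts, and levels are CPM, counts relative to the library total after scaling by the trimmed mean of M-values (TMM). The fibroblast genes COL1A1, COL1A2, COL3A1, VIM, PDGFRB, THY1, FAP, DCN and LUM were measured in every library, with a summed level of 20790 to 24580 CPM in Prol, 19988 to 20558 in Sen(IR), 10557 to 11001 in Sen(IR)+UK5099 and 17536 to 19319 in Sen(IR)+CTPI2. The lower sum with UK5099 lay mostly in collagens, with COL1A1 at 4714.5 CPM in Sen(IR) and 1601 with UK5099, COL1A2 at 7321 and 3519, and COL3A1 at 2752 and 819. DCN (1363 and 1362 CPM), LUM (357 and 370.3) and PDGFRB (156 and 162) were at like levels in both groups. The other fibroblast genes were lower with UK5099, FAP at 145 CPM in Sen(IR) and 13.2 with UK5099, THY1 at 366 and 217, and VIM at 3063 and 2780. The 5 erythroid genes, which would mark iron-loaded blood cells, summed to at most 0.616 CPM in any library. The 5 blood and macrophage genes summed to 1.07 to 1.66 CPM in Prol and 4.22 to 6.97 CPM in the irradiated groups, the 3 endothelial genes to at most 1.36 CPM, and the 5 epithelial genes to 59.2 to 71.8 CPM in Prol and 16.1 to 26.9 CPM in the irradiated groups. MKI67, a proliferation marker, was at 235 CPM in Prol, 10.97 in Sen(IR), 0.95 in Sen(IR)+UK5099 and 12.5 in Sen(IR)+CTPI2. Among the markers of other types, HBA2 had 0 counts in every library, SFTPC at most 2, CDH5 at most 5 and PTPRC at most 8. Others in the same lists were present. KRT18 was at 53.4 CPM in Prol and 7.54 to 16.3 in the irradiated groups, and CD14 at 0.192 and 2.57 to 4.28. KRT8 was at 9.91 CPM in Prol and 7.98 to 8.33 in the irradiated groups. EPCAM had 10 to 31 counts in every library, CD68 17 to 47 and VWF 4 to 27. The part of these marker differences in the results was not tested. In these bulk libraries, fewer cells of a type and less RNA per cell cannot be told apart.

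Sen(IR) cells held more ferritin, ferroportin and endosomal and cell-surface iron transporter mRNA than Prol cells. A gene was called when its edgeR quasi-likelihood test gave a Benjamini-Hochberg adjusted p under 0.05 over all genes tested and its absolute log2 fold change was over 0.5. By that rule 6 of 10 genes were higher (FTH1, FTL, SLC11A2, SLC39A14, SLC40A1 and ACO1), against 24.8% of all genes tested, and 0 were lower, against 22.4%. By adjusted p alone, 9 of 10 differed, against 68.7% of all genes. The median log2 fold change was 0.72 over the 10 genes and 0.01 over all genes tested.

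UK5099 split these genes. Against Sen(IR), 2 of 10 were higher (FTL and SLC40A1; 8.76% of all genes were called higher) and 4 were lower (STEAP3, SLC11A2, SLC39A14 and ACO1; 12.1% of all genes were called lower). By adjusted p alone 9 of 10 differed, against 45.4% of all genes, and the median log2 fold change was -0.24 over the 10 genes and 0.01 over all genes. CTPI2 gave 0 called genes of 10 in edgeR in either direction, against 0.0185% of all genes higher and 0.148% lower, and DESeq2 also called 0. With an unadjusted p under 0.05 there were 3 (FTL, SLC11A2 and SLC39A14), against 1182 of the 16251 genes tested. By adjusted p alone there were 2 (SLC11A2 and SLC39A14), against 0.486% of all genes. UK5099 against CTPI2 gave 2 higher (FTL and SLC40A1, against 8.20% of all genes) and 3 lower (STEAP3, SLC11A2 and SLC39A14, against 11.7%), with 9 of 10 past the adjusted p alone, against 44.5% of all genes. Both inhibitor comparisons and the comparison with Prol share the 3 Sen(IR) libraries, so a low or high Sen(IR) level enters all of them. The UK5099 against Prol fold changes below do not use the Sen(IR) level, but their scaling and spread estimate come from the fit of all 12 libraries.

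**Figure D1:**
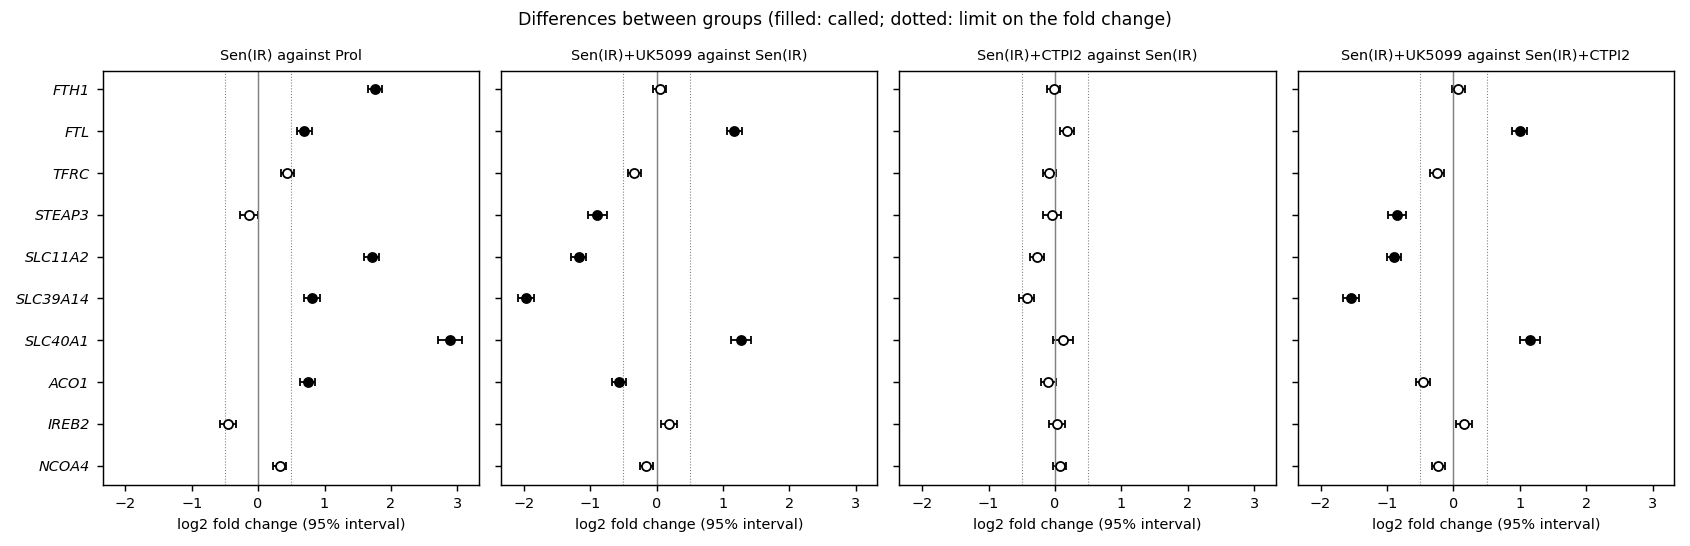
Log2 fold change (x axis) of each of the 10 iron genes (rows) in the 4 comparisons, with 95% intervals from the edgeR fit; filled circles are called and dotted lines mark a log2 fold change of 0.5 either way. SLC40A1 and FTL are filled and to the right in the panels of Sen(IR) against Prol, UK5099 against Sen(IR) and UK5099 against CTPI2, while no circle is filled in the CTPI2 against Sen(IR) panel.

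**Figure D2:**
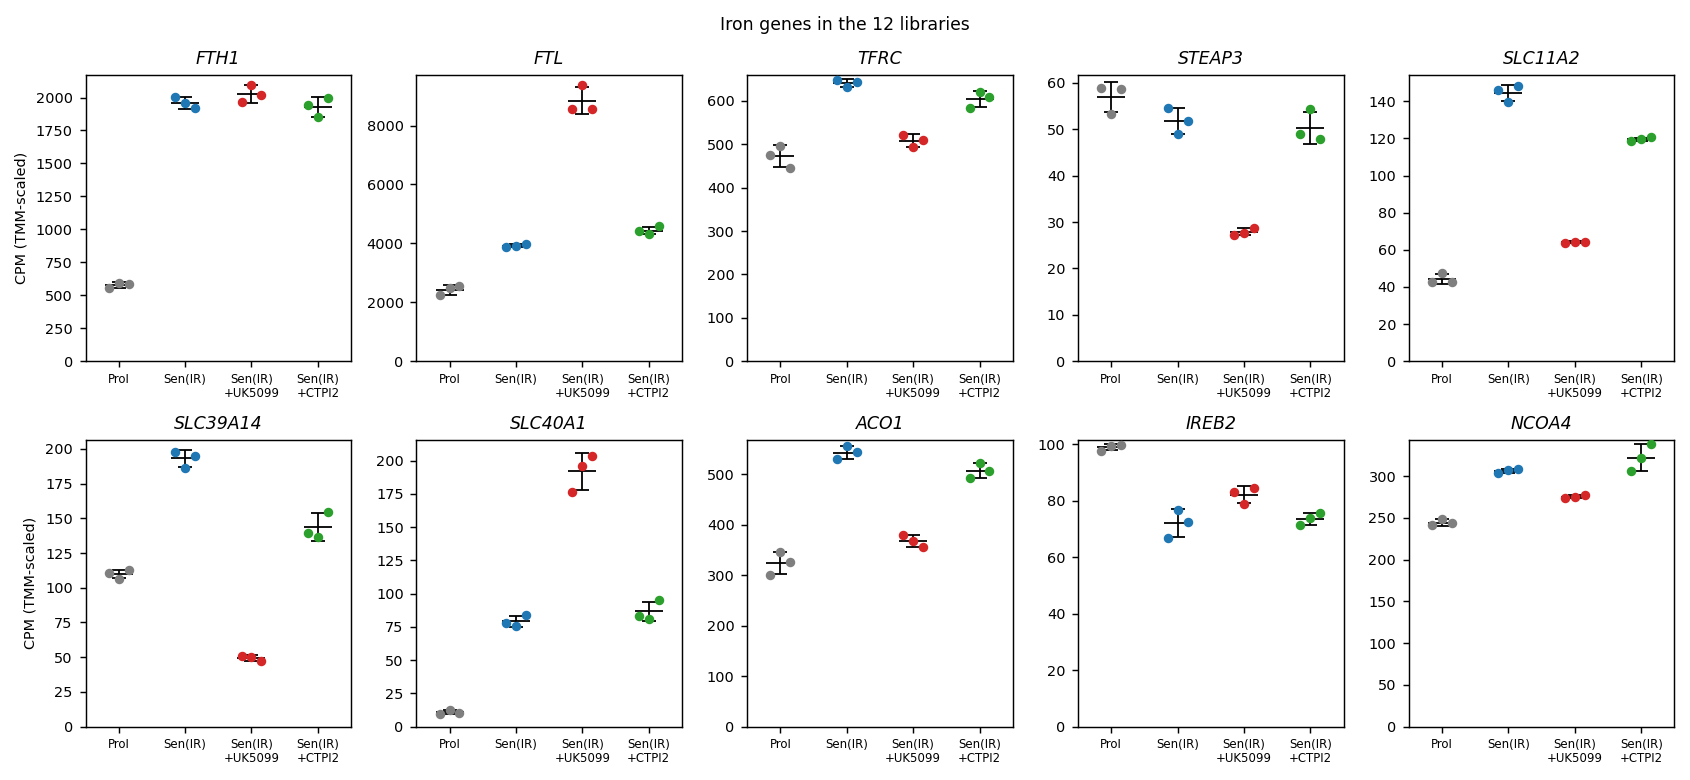
TMM-scaled CPM (y axis, from 0, one scale per gene) of the 10 iron genes in the 12 libraries; points are libraries and bars are the mean and SD of 3. The FTL and SLC40A1 points are highest in Sen(IR)+UK5099, and the SLC39A14 points are lowest there.

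Storage came first in abundance. FTH1 was at 554, 593 and 587 CPM in Prol and at 2007, 1960.4 and 1917 in Sen(IR). It was at 1963, 2097 and 2015.5 CPM in Sen(IR)+UK5099 and at 1945, 1849.6 and 1999 in Sen(IR)+CTPI2. Every irradiated library was above every Prol library, and the 3 irradiated groups overlapped one another. The rise in Sen(IR) was 3.40-fold (log2 fold change 1.76, SE 0.05, adjusted p = 1.53e-18 in edgeR). UK5099 against Sen(IR) gave a log2 difference of 0.05 with a 95% interval from -0.05 to 0.14 (adjusted p = 0.452), and CTPI2 against Sen(IR) gave -0.02 with an interval from -0.12 to 0.08 (adjusted p = 0.969). FTH1 lies at chr11:61959718-61967634, and 73.2% of the bases of its canonical transcript overlap exons of BEST1 on the opposite strand. BEST1 itself was at 5.24 to 12.4 CPM. Whether the counting used strand is not given in the sources used here, and reads in such overlaps may have been assigned to neither gene.

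FTL, the light chain, moved in 2 steps. It was at 2241, 2471 and 2544 CPM in Prol, 3865, 3917 and 3989 in Sen(IR), 8577, 9373.5 and 8568.5 in Sen(IR)+UK5099 and 4420.3, 4311 and 4575 in Sen(IR)+CTPI2. The 4 groups did not overlap. Sen(IR) exceeded Prol 1.62-fold (log2 fold change 0.70, SE 0.05, adjusted p = 5.48e-11), and UK5099 exceeded Sen(IR) 2.25-fold (log2 fold change 1.17, SE 0.05, adjusted p = 3.23e-14). UK5099 was 1.99-fold above CTPI2 (log2 fold change 0.99, adjusted p = 6.38e-13) and 3.65-fold above Prol. CTPI2 against Sen(IR) gave 0.18 on the log2 scale (95% interval 0.07 to 0.28), which did not pass the adjusted test (adjusted p = 0.219).

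The mean ratio of the 2 chain mRNAs varied between groups, and no protein was measured in these libraries. Per kilobase of the canonical transcript, the ratio of FTL to FTH1 was 5.78 ± 0.20 in Prol, 2.76 ± 0.11 in Sen(IR), 6.03 ± 0.15 in Sen(IR)+UK5099 and 3.17 ± 0.04 in Sen(IR)+CTPI2 (SD, n = 3). The groups did not overlap except for Prol and Sen(IR)+UK5099, whose ranges were 5.59 to 5.99 and 5.87 to 6.17. In exact two-sided permutation tests, p was 0.1 for every pair but that one, where it was 0.2, and 0.1 is the smallest p that 3 against 3 libraries allow. Adjusted over the 6 pairs, these were 0.12 and 0.2, so with this few libraries the test could not decide whether the ratios differ. Which chain had the more abundant mRNA depends on how reads in the BEST1 overlap were counted. If none of them was given to FTH1, only 323 of its 1203 bases could collect counts, and the ratio would be 1.55 in Prol, 0.742 in Sen(IR), 1.62 in Sen(IR)+UK5099 and 0.852 in Sen(IR)+CTPI2, with FTH1 above FTL in Sen(IR) and Sen(IR)+CTPI2. This length was tried after seeing the data, and it scales every library alike, so the order of the groups and the tests do not change with it. Together, FTL and FTH1 took 0.287% ± 0.016 of all counts in Prol, 0.582% ± 0.003 in Sen(IR), 1.14% ± 0.05 in Sen(IR)+UK5099 and 0.639% ± 0.022 in Sen(IR)+CTPI2. FTL ranked at places 28 to 34 among all genes by count in Prol and at place 3 in every Sen(IR)+UK5099 library. Ferritin has many processed pseudogenes. The 25 FTH1 pseudogene rows held 0.631% to 0.927% of the FTH1 count and the 16 FTL rows 0.0681% to 0.0956% of the FTL count, but only uniquely placed reads were counted, so reads that fit a pseudogene as well are lost and their number is not known.

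**Figure D3:**
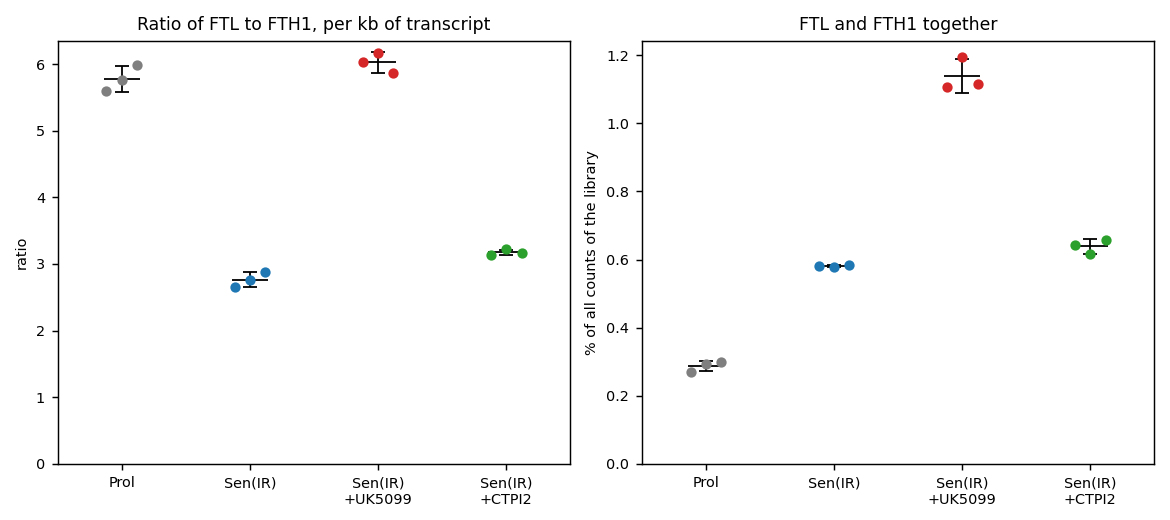
Left, ratio of FTL to FTH1 per kilobase of canonical transcript, and right, FTL and FTH1 counts as a percentage of all counts, by group (y axes from 0); points are libraries and bars are the mean and SD of 3. The ratio, over the full FTH1 length, is lowest in Sen(IR), at 2.76, and near 6 in Prol and Sen(IR)+UK5099, whereas the summed share is highest with UK5099, at 1.14%.

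Among the uptake genes, the non-transferrin iron transporter SLC39A14 (ZIP14, chromosome 8) changed most with UK5099. Its CPM were 111, 107 and 113 in Prol, 198, 187 and 195 in Sen(IR), 51.1, 49.8 and 47.4 in Sen(IR)+UK5099, and 139.58, 137 and 155 in Sen(IR)+CTPI2. No groups overlapped, and the UK5099 libraries lay below the proliferating ones. Sen(IR) was 1.76-fold above Prol (log2 fold change 0.81, SE 0.06, adjusted p = 1.09e-11), and UK5099 was 3.91-fold below Sen(IR) (log2 fold change -1.97, SE 0.06, adjusted p = 1.61e-17). Against Prol, UK5099 gave -1.15. CTPI2 also lowered it, by a smaller amount that passed the adjusted p but not the limit on the fold (log2 fold change -0.43, 95% interval -0.54 to -0.31, adjusted p = 1.08e-04). The difference between the inhibitors was itself tested, with a log2 fold change of -1.54 for UK5099 against CTPI2 (adjusted p = 1.69e-15).

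SLC11A2 (DMT1), which moves ferrous iron out of endosomes, had a like order but did not fall below Prol. It was at 42.4, 47.3 and 42.9 CPM in Prol and at 146, 139.79 and 148 in Sen(IR). With UK5099 it was at 63.8, 64.4 and 64.4 CPM, and with CTPI2 at 119, 119 and 121. All 4 groups were separate. Sen(IR) was 3.27-fold above Prol (log2 fold change 1.71, SE 0.05, adjusted p = 1.65e-17) and 2.25-fold above UK5099 (log2 fold change -1.17 for UK5099, SE 0.05, adjusted p = 3.68e-14). UK5099 stood above Prol by 0.54 on the log2 scale. CTPI2 gave -0.27 against Sen(IR) (95% interval -0.38 to -0.17, adjusted p = 0.0093), under the limit on the fold, and UK5099 against CTPI2 gave -0.90 (adjusted p = 4.88e-12). Its known isoforms with and without an iron-responsive element share 1 row here and cannot be separated.

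STEAP3, the endosomal ferrireductase, was lowest with UK5099. Its levels were 58.9, 53.3 and 58.6 CPM in Prol, 54.6, 49.0 and 51.8 in Sen(IR), 27.2, 27.7 and 28.8 in Sen(IR)+UK5099 and 48.9, 54.3 and 47.8 in Sen(IR)+CTPI2. The Prol, Sen(IR) and CTPI2 libraries overlapped, and the UK5099 libraries lay below all of them. Sen(IR) against Prol gave -0.14 (adjusted p = 0.069), UK5099 against Sen(IR) gave -0.89 (SE 0.07, adjusted p = 3.47e-10), UK5099 against CTPI2 gave -0.85 (adjusted p = 8.67e-10) and UK5099 against Prol gave -1.03. Its canonical transcript shares 11.7% of its bases with the opposite-strand gene STEAP3-AS1, which had at most 12 counts in any library.

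The transferrin receptor TFRC, the uptake gene with the 3′ UTR elements printed above, moved within a narrow range. Its mean was 472 ± 25 CPM in Prol, 642 ± 9 in Sen(IR), 509 ± 15 in Sen(IR)+UK5099 and 604 ± 19 in Sen(IR)+CTPI2 (SD, n = 3). Sen(IR) stood above Prol by 0.44 on the log2 scale (adjusted p = 3.79e-08) and UK5099 below Sen(IR) by a log2 fold change of -0.34 (adjusted p = 6.50e-06), both under the limit on the fold. UK5099 and Prol overlapped (0.11, adjusted p = 0.0527), and CTPI2 against Sen(IR) gave -0.09 with an interval from -0.19 to 0.01 (adjusted p = 0.769). With upper-quartile scaling, which shifts the median of all genes in Sen(IR) against Prol by 0.12 on the log2 scale, TFRC passes the limit there at 0.56.

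The exporter SLC40A1 had the widest range of the 10 genes, 4.15 on the log2 scale between its highest and lowest group means. It was at 9.81, 12.3 and 10.1 CPM in Prol and 78.2, 75.9 and 83.9 in Sen(IR). With UK5099 it was at 176, 196 and 203 CPM, and with CTPI2 at 83.5, 81.3 and 95.04. Prol was lowest and UK5099 highest without overlap, while Sen(IR) and CTPI2 overlapped. Sen(IR) was 7.40-fold above Prol (log2 fold change 2.89, SE 0.09, adjusted p = 7.57e-18), and UK5099 was 2.42-fold above Sen(IR) (log2 fold change 1.28, SE 0.07, adjusted p = 2.07e-12). UK5099 was 4.16 above Prol on the log2 scale and 1.15 above CTPI2 (adjusted p = 1.35e-11). CTPI2 against Sen(IR) gave 0.13 with an interval from -0.03 to 0.28 (adjusted p = 0.783).

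The 2 iron regulatory proteins differed in order. ACO1, which is also the cytosolic aconitase, was at 301, 346 and 325 CPM in Prol, 530.36, 555 and 543 in Sen(IR), 380.16, 367 and 357 in Sen(IR)+UK5099 and 493, 522 and 506 in Sen(IR)+CTPI2. Prol and UK5099 were both below Sen(IR) and CTPI2 without overlap. The log2 fold change was 0.75 in Sen(IR) against Prol (SE 0.05, adjusted p = 1.84e-11), -0.56 with UK5099 against Sen(IR) (SE 0.05, adjusted p = 8.50e-09) and -0.10 with CTPI2 (95% interval -0.21 to 0.01, adjusted p = 0.732). UK5099 against CTPI2 gave -0.46, which passed the adjusted p (2.00e-07) and not the limit on the fold.

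IREB2 was highest in Prol, at 98.9 ± 1.1 CPM, and was at 72.1 ± 4.9 in Sen(IR), 82.2 ± 3.0 in Sen(IR)+UK5099 and 73.7 ± 2.1 in Sen(IR)+CTPI2. The log2 fold change of Sen(IR) against Prol was -0.46 (adjusted p = 2.23e-07), just under the limit, and it was -0.50 and called when Sen(IR) replicate 2 was left out. UK5099 against Sen(IR) gave 0.19 (adjusted p = 0.00921), and CTPI2 against Sen(IR) gave 0.03 with an interval from -0.09 to 0.15 (adjusted p = 0.961). NCOA4, the ferritin receptor for lysosomal breakdown, was at 244 ± 4 CPM in Prol, 306 ± 3 in Sen(IR), 275 ± 2 in Sen(IR)+UK5099 and 322 ± 16 in Sen(IR)+CTPI2. Its differences were 0.33 in Sen(IR) against Prol (adjusted p = 2.07e-06) and -0.15 with UK5099 against Sen(IR) (adjusted p = 0.0100), both under the limit on the fold, and 0.07 with CTPI2 (adjusted p = 0.830).

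By level per kilobase of canonical transcript in Sen(IR), the ferritin mRNAs led. FTL had 4505 CPM per kb and FTH1 had 1630.5, or 6073 over its bases not shared with BEST1. TFRC followed with 128. NCOA4 had 88.5 CPM per kb, ACO1 73.0, SLC39A14 41.4 and SLC11A2 35.0. SLC40A1 had 23.8, STEAP3 12.2 and IREB2 11.4, so STEAP3 and IREB2 were within their spread (SD 0.65 and 0.78). SLC40A1 was the lowest of the 10 in Prol, at 3.22 CPM per kb, and stood above SLC11A2 (15.5) and SLC39A14 (10.6) with UK5099, at 57.6.

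Across the 12 libraries, as a description over groups that differ in mean, the log2 CPM of SLC11A2 and ACO1 had a Pearson r of 0.99, TFRC and SLC11A2 0.98, and TFRC and ACO1 0.97. FTL and STEAP3 had an r of -0.93, SLC11A2 and IREB2 -0.93, and FTL and TFRC 0.08. All points share the 4 groups and the library scaling. Among 9610 genes with a mean log2 CPM above 3, the 3 whose pattern was most like that of SLC40A1 were CYBRD1 (r = 0.998), a ferric reductase, RNF141 (0.998) and VPS41 (0.997). CYBRD1 rose from 186 ± 17 CPM in Prol to 436 ± 12 in Sen(IR) and was at 648 ± 27 with UK5099 and 453 ± 14 with CTPI2. For FTL they were ATP6V1A (0.995), a subunit of the proton pump that acidifies lysosomes, ACVR2A (0.995) and TLK1 (0.994), and for SLC39A14 they were IER3 (0.993), SEMA3A (0.993) and SSR1 (0.992). ATP6V1A was at 206 ± 2 CPM in Prol, 338 ± 5 in Sen(IR), 743 ± 11 with UK5099 and 363 ± 6 with CTPI2.

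The rest of the pathway was read from 6 lists of 100 iron and haem genes, of which 95 had a row and 81 were tested. In Sen(IR) against Prol, 21 of 81 (25.9%) were called higher and 15 (18.5%) lower, beside 24.8% and 22.4% of all genes tested, and the median log2 fold change was 0.01 in both. The lists together were thus near the background. Of the transferrin cycle and cell-surface list, 8 of 10 were higher and 0 lower (median 1.35), beside the same 24.8% and 22.4% of all genes, and its difference from the other lists was not tested. SLC39A8 (ZIP8), a relative of SLC39A14, rose 9.88-fold (log2 fold change 3.30), and the metalloreductase STEAP2 rose 7.33-fold (2.87). Transferrin (TF) had 1 count in all Prol libraries together and 0.343 CPM in Sen(IR), at least 2.79-fold higher than the floor of 3 counts per library.

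The other lists are read against the same 24.8% of all genes higher and 22.4% lower. Of 8 genes of export and the hepcidin axis, 4 (50%) were higher and 1 (12.5%) lower in Sen(IR). The ferroxidase HEPH was higher (0.94), as was FLVCR2 (0.70), while ERFE, a hormone that represses hepcidin, fell 10.8-fold (log2 fold change -3.44, adjusted p = 3.79e-14). Of 23 mitochondrial iron and iron-sulfur genes, 3 were higher, namely FDXR (1.04), the cluster scaffold ISCU (1.01) and CISD1 (0.93), and 6 were lower (13.04% and 26.1%). Of 18 haem genes, 5 were higher and 3 lower (27.8% and 16.7%). They included the haem transporter SLC48A1 (1.14) and HMOX1 (1.03), which breaks haem down and frees its iron. Of 17 genes of IRP control, iron chaperones and cytosolic clusters, 0 were higher and 5 (29.4%) lower, led by NDOR1 (-1.43), NUBP1 (-0.99) and GLRX3 (-0.79), which act in cytosolic cluster assembly. Of 5 other genes known for iron-responsive elements, only CDC14A was called (0.99).

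**Figure D4:**
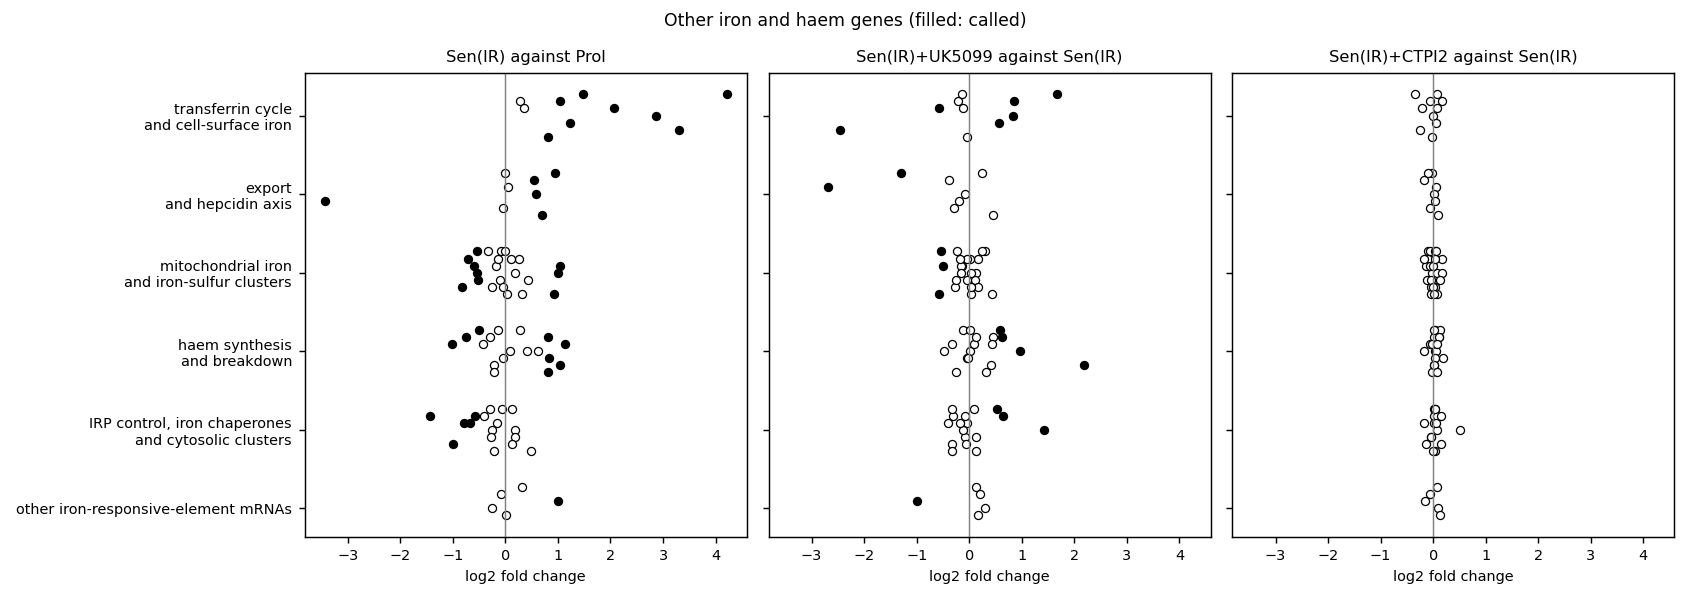
Log2 fold change (x axis) of the 81 tested genes of 6 iron and haem lists (rows; vertical offsets only separate points) in 3 comparisons; filled circles are called. In Sen(IR) against Prol 8 of 10 genes of the transferrin cycle and cell-surface iron list are filled to the right, and no gene is filled in the CTPI2 panel.

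With UK5099 against Sen(IR), 11 of 81 (13.6%) were called higher and 8 (9.88%) lower (median -0.04), beside 8.76% and 12.1% of all genes tested. The list counts that follow are read against those shares. HMOX1 was the largest rise, from 39.2 CPM in Sen(IR) to 179 CPM (4.57-fold, log2 fold change 2.19, SE 0.07, adjusted p = 2.99e-17). SLC39A8 fell with its relative SLC39A14, from 21.4 to 3.88 CPM (log2 fold change -2.46, adjusted p = 1.30e-12). In the transferrin list 4 were higher and 2 lower, among them TF (1.68) and the lipocalin receptor SLC22A17 (0.84). In the export list 0 were higher and 2 lower, BMP2 (-2.69), a ligand that drives hepcidin in liver, and the porphyrin exporter ABCG2 (-1.30).

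Of 18 haem genes 4 were higher with UK5099 and 0 lower, HPX (0.96) and ABCB6 (0.62) beside HMOX1. HPX lost its call without Sen(IR) replicate 1 or 2 or UK5099 replicate 1 or 3 (adjusted p = 0.0546, 0.182, 0.0907 and 0.0698). Of 23 mitochondrial genes 0 were higher and 3 lower. CISD1 was at -0.57 and the iron importer SLC25A37 at -0.54, and without UK5099 replicate 1 they were at -0.49 and -0.48 and not called. Of the 17 control and chaperone genes 3 were higher and 0 lower. The chaperone relative PCBP3 was at 1.41. FBXL5, which marks IREB2 for degradation when iron is high, was at 0.53, and at 0.49 and not called without UK5099 replicate 3. NDOR1 (0.63, adjusted p = 0.0433) lost its call when any 1 of 5 of the 6 libraries was left out (adjusted p from 0.0587 to 0.162 over Sen(IR) replicates 1, 2 and 3 and UK5099 replicates 2 and 3). CDC14A fell (-0.998), the only called gene of 5 in its list.

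CTPI2 against Sen(IR) gave 0 called genes of 81 in edgeR and in DESeq2, and the median log2 fold change was 0.02. Without adjustment, 5 of the 81 had a p under 0.05, beside 1182 of the 16251 genes tested. UK5099 against CTPI2 gave 9 (11.1%) higher and 6 (7.41%) lower of 81 (median -0.05), beside 8.20% and 11.7% of all genes tested, shares that hold for the list counts that follow too. Of the transferrin list, 4 were higher and 1 lower, with SLC39A8 at -2.21, TF at 2.02 and STEAP2 at 0.84. Of the export list, 0 were higher and 2 lower, BMP2 at -2.75 and ABCG2 at -1.20. Of the haem list, 3 were higher and 1 lower, with HMOX1 at 2.18, HPX at 1.13 (adjusted p = 0.0578 without CTPI2 replicate 1) and ABCB6 at 0.60 (0.49 and not called without CTPI2 replicate 3). CISD1 (-0.59) was the single called mitochondrial gene and CDC14A (-0.84) the single one of its list. PCBP3 (0.91) and FBXL5 (0.52, and 0.47 and not called without UK5099 replicate 3) were the called genes of the control and chaperone list.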

How the data were processed

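RNA sequencing was performed on 12 libraries in 4 groups of 3. The deposited values are raw counts per gene. Per the labels and the study's methods, Trimmomatic 0.36 was used by the authors for trimming, STAR 2.5.2b for alignment (genome GRCh38) and featureCounts (Subread 1.5.2) for counting unique reads. The annotation release and strand setting are not given in the sources used here. No column of another sample was in the table (0 columns).

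Counts were tested with edgeR 4.0.16 in R 4.3.3 (filterByExpr, TMM, quasi-likelihood) in 1 fit of all libraries, with Benjamini-Hochberg adjustment over 16251 genes. Genes were called at an adjusted p under 0.05 and an absolute log2 fold change over 0.5. The study used DESeq2 (here 1.42.0, an alternative) with the same limit on the fold and a limit of 0.05 on a p-value it does not call adjusted, which is an alternative here. The common dispersion was 0.00374, a coefficient of variation of 6.12%. Every pair of replicates differed beyond counting noise (chi-square per gene 2.21 to 12.2). A floor of 3 counts was 0.111 to 0.147 CPM and covers counting error only. Of 57500 identifiers, 56410 matched GENCODE release 44, which gave positions, canonical transcript lengths and UTRs. Some named list genes share many canonical transcript bases with exons of other genes. The shares were 94.1% for ABCB6 and 38.8% for NDOR1 (same strand), 52.5% for NUBP1 (opposite strand) and 32.9% for FLVCR2. Reads there may have been assigned to neither gene.

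All 10 genes are named. Of each list, the 3 called genes with the largest absolute log2 fold change per comparison are named, except some that are not reported here. Likeness was computed for the 3 genes with the widest range of group means. The genes and lists were chosen with earlier results of these data known. Alternatives were other scalings, no filter, DESeq2, fits of the compared groups alone, a replicate block, other limits and leaving out each library. The scripts were tested on simulated data.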

Additional observations from a re-analysis of the deposited data

How the results depend on the processing

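Across RLE and upper-quartile scaling, no filter, DESeq2, a fit of the compared groups alone and the replicate block, 6 to 7 of the 10 iron genes were called in Sen(IR) against Prol, 6 with UK5099 against Sen(IR), 0 with CTPI2 against Sen(IR) and 5 with UK5099 against CTPI2. Counts moved with the limit on the fold, by construction. With a limit of 1, the iron genes called were 3 in Sen(IR) against Prol and 2 in UK5099 against CTPI2, and the list genes 14 in Sen(IR) against Prol, 6 with UK5099 against Sen(IR) and 6 with UK5099 against CTPI2. The share of all genes at that limit is not given here. With no limit, the iron genes called were 2 with CTPI2 against Sen(IR) and 9 with UK5099 against CTPI2, beside 0.486% and 44.5% of all genes. The list genes called were then 59 of 81 in Sen(IR) against Prol, beside 68.7% of all genes. They were 43 with UK5099 against Sen(IR) and 43 with UK5099 against CTPI2, beside 45.4% and 44.5%. With a limit on the unadjusted p, 1 list gene was called with CTPI2 against Sen(IR), a setting whose share of all genes is not given here. Of the other gene values, 1481 kept their direction and side of the limits, 51 lost a call, 23 gained one, 2 moved and 4 reversed. Of these, 2 moved and 2 reversed with the FTH1 length that leaves out bases shared with BEST1, an alternative chosen after seeing the data (FTL to FTH1 ratio 0.742 in Sen(IR) and 0.852 in Sen(IR)+CTPI2). The other reversed values were never called: leaving out 1 library at a time, FTH1 with CTPI2 against Sen(IR) ran from -0.047 to 0.0078 and IREB2 from -0.019 to 0.079. Same-numbered libraries did not deviate together (r from -0.051 to 0.042, 0 of 18 pairs over 0.1). These correlations cannot tell whether same-numbered libraries came from the same experiment. With the replicate block the iron genes called were 6 in Sen(IR) against Prol, and among named genes only NDOR1 lost its call (adjusted p = 0.0525). With 3 libraries a group, precision is limited for genes near the floor, such as TF and HPX.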
